A study of Rattus norvegicus with 16 samples.

Results

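The immediate early and CCN genes considered here are 10 genes: Ccn1, Ccn2, Fos, Jun, Junb, Egr1, Atf3, Ier2, Ier3 and Dusp1. They were taken by name, with every probe set whose platform gene symbol is 1 of the 10, which gave 14 of the 15866 probe sets that are not controls. Jun has 3 probe sets, Fos and Dusp1 have 2 each, and the other 7 genes have 1 each. Of the 14 probe sets, 12 passed a filter that left out the dimmest 30% of probe sets, and these represent 9 genes. Both Fos probe sets lay below it.

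Lung RNA was hybridised to 16 Affymetrix arrays, 4 biological replicates in each of 4 groups: spontaneously hypertensive (SH) rats given sulfur dioxide (SO2), SH rats given air, Sprague Dawley (SD) rats given SO2, and SD rats given air. SH is an inbred strain with high blood pressure, SD is an outbred stock, and SO2 is an irritant gas. According to its title the study tested SH rats as a model for SO2-induced disease of the airways, and the comparisons ask what SO2 did to these genes in each strain and how the strains differed under each exposure. The sources used here do not give the dose, the length of exposure, the time of sampling, or the age and sex of the animals.

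Immediate early genes are transcribed within minutes of a stimulus such as a growth factor, stretch or oxidative stress, before any new protein is needed, and their messages are short-lived. Many encode transcription factors: Fos and Jun proteins pair to form AP-1, and Egr1 is a zinc finger factor. Ccn1 and Ccn2 (formerly Cyr61 and Ctgf) encode secreted matricellular proteins that bind integrins and other matrix receptors, respond to the co-activator YAP with its TEAD partners, and are studied in lung for their part in matrix deposition and repair. Dusp1 encodes a phosphatase that switches off the MAP kinases which drive much of this response.

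The promoters of 4 of the genes are shown because the results turn on them: Ccn1 carried the called differences, Ccn2 had the smallest unadjusted p for SO2 in SH rats, and Ier2 and Junb each belong to a pair of genes that varied together between animals. Each window is the 250 bases before the RefSeq transcript start in assembly GRCr8, written 5′ to 3′ on the gene's strand, from the reference rat and not from SH or SD animals. Capitals mark matches to the TEAD motif (GGAATG, or CATTCC on the other strand) or the TATA box (TATAAA, or TTTATA on the other strand). They also mark the cyclic AMP response element (CRE, TGACGTCA, the same on both strands).

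Ccn1, chr2:237225690-237225939, minus strand: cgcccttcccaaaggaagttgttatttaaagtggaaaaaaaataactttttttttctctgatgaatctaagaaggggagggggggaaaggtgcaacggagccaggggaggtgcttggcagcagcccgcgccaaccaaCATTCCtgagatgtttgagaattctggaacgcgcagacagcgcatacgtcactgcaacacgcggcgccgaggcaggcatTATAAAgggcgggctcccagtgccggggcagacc

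Ccn2, chr1:22624615-22624864, minus strand: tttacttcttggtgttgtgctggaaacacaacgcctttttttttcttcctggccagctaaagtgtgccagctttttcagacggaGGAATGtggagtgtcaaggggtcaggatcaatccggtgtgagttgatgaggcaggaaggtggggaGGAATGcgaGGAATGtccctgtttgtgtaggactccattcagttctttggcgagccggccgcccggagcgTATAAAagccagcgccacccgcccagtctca

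Ier2, chr19:40399123-40399372, plus strand: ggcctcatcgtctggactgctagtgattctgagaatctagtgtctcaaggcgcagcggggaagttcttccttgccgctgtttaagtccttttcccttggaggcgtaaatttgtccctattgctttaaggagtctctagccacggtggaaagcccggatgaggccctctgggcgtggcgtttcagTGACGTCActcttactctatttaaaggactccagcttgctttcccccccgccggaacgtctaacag

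Junb, chr19:40080876-40081125, plus strand: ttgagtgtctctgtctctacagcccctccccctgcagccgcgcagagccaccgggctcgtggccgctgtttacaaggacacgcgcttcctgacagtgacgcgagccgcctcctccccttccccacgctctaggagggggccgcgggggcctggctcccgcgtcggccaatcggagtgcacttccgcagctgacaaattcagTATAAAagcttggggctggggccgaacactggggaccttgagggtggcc

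RefSeq promoter windows were at hand for 6 of the 10 genes, the 4 above with Egr1 and Dusp1. The TEAD motif, present in 12.1% of 33469 such windows, had 1 match in Ccn1 and 3 in Ccn2. The TATA box, on either strand in 12.9% of windows, was found in Ccn1, Ccn2 and Junb, each time as TATAAA. The CRE, in 1.59% of windows, was found in Ier2 and Dusp1. The CArG box, the site of serum response factor, was in 1.5% of windows, and Egr1 held 2 matches. The AP-1 motif TGANTCA, in 6.34% of windows, was found in none of the 6. A match describes these letters only, and no motif search says whether a factor was bound.

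Values are the deposited signals, linear intensities with no unit, and fold changes and tests are on log2(intensity + 16). The arrays had been scaled to a common level, with means trimmed by 2% at either end of 500.099 to 500.111. Of 9 surfactant, airway and alveolar epithelial marker genes, 7 are on the array and all 7 passed the level filter, with Sftpc between 24003.9 and 45111.2 on all 16 arrays. Replicate numbers here follow the order of the titles within each group. SD air replicate 2, with 46 in its title, stood apart from its label as SD air. Its signal of Terf2ip, a telomere protein gene with strongly strain-dependent signal here, was 693.8. That value lay inside the SH air range of 424.8 to 733.2 and far below the remaining SD air replicates at 1982.2 to 2363.4. The changes with SO2 in SD rats, the interactions and the averages printed for the tested genes are therefore also given without this array. This was not done for Fos or for genes outside the 10. In whole lung, fewer cells of a type and less RNA per cell cannot be told apart.

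**Figure D1:**
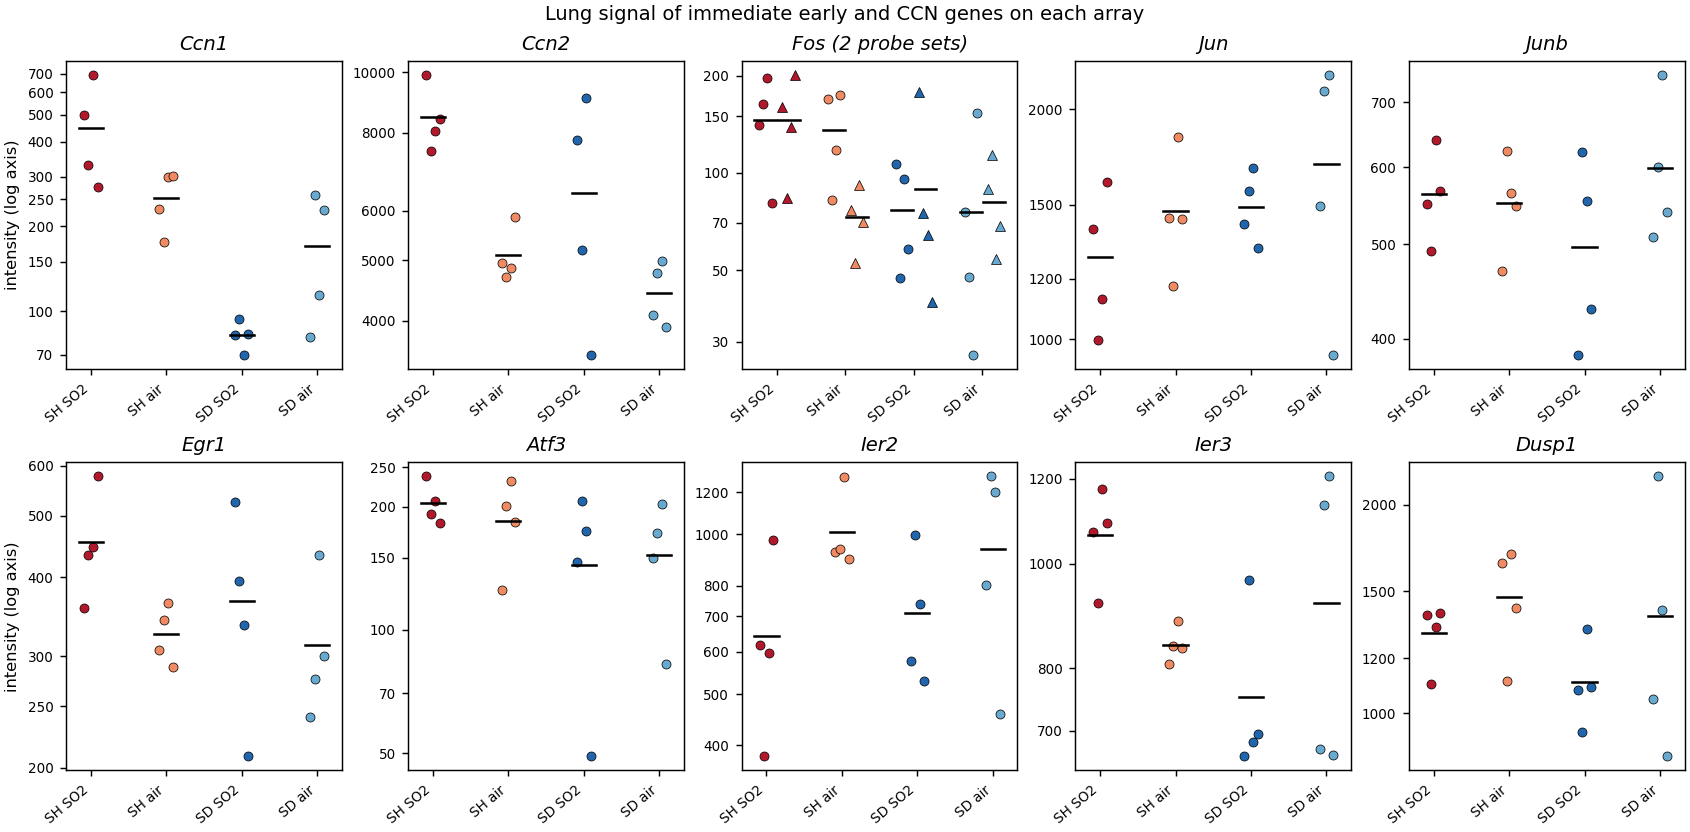
Signal (linear intensity on a log axis) of each gene on the 16 arrays, as points, with a black line at each group mean; genes with several tested probe sets are shown by the brightest, and Fos by both of its probe sets (1371283_at as circles, 1375043_at as triangles). Ccn1 in SH SO2 (277.1 to 691.4) lies above Ccn1 in SD SO2 (69.6 to 93.7) with no overlap, and Ccn2 in SH SO2 lies above Ccn2 in SH air.

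Ccn1, which encodes a secreted matrix protein that acts on cell adhesion, migration and survival, was the only 1 of these genes with a called difference, which lay between the strains. It measured 498.2, 330.4, 691.4 and 277.1 in SH SO2 lungs. The same probe set, 1368290_at, measured 81.9, 93.7, 69.6 and 82.7 in SD SO2 lungs. The lowest SH SO2 array was above the highest SD SO2 array. The difference was 2.17 on the log2 scale (SE 0.311, 95% interval 1.52 to 2.82), a 4.49-fold higher signal in SH rats, with a limma adjusted p of 0.0008278. Among all 11106 probe sets tested, 0.81% were called in this comparison and 0.405% were called higher in SH, against 1 of the 12 probe sets of these genes.

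In air Ccn1 measured 230.4, 175.8, 299.6 and 301.6 in SH lungs. In SD air lungs it measured 81.1, 257.9, 113.8 and 229.2. The SD air values were split, with 2 inside the SH air range and 2 below it. The SH minus SD difference in air was 0.62 (SE 0.311, adjusted p = 0.7871), and 0.85 without SD air replicate 2 (adjusted p = 0.371), neither of which passed. Averaged over both exposures, Ccn1 was higher in SH by 1.39 (SE 0.22, adjusted p = 0.001748), with 1.53% of all probe sets called in that comparison and 0.729% called higher. Without SD air replicate 2 this average was 1.51 (adjusted p = 0.00034615).

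In order of level, Ccn1 averaged 449 ± 187 in SH SO2, 252 ± 60.5 in SH air, 170.5 ± 86.2 in SD air and 82.0 ± 9.85 in SD SO2 (SD, n = 4 each). No neighbours in this order differed by a test that passed. SO2 minus air was 0.74 in SH (SE 0.311, unadjusted p = 0.02779, adjusted p = 0.9486), with overlapping groups. In SD it was -0.81 (SE 0.311, unadjusted p = 0.01791, adjusted p = 0.5224), and -0.58 without SD air replicate 2. The signs are opposite, but the difference between the SO2 effects, 1.55 (SE 0.44, 95% interval 0.63 to 2.47), did not pass after adjustment over all probe sets (unadjusted p = 0.002283, adjusted p = 0.9588), and it was 1.32 without SD air replicate 2.

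All 4 SD SO2 values of Ccn1 were under 109.0, the intensity at which the level filter was set, so Ccn1 was kept partly by its SH arrays and its fold depends on the offset added before the log. The strain difference in SO2 was 2.36 with an offset of 1 and 1.75 with an offset of 64, and it was called in 26 of the 26 alternatives fitted per probe set that kept it, with adjusted p between 0.000262631 and 0.00543569. The summed signal of heart muscle markers was also higher on average in SH SO2, with overlap, at 2774.9 to 4365.0 against 1567 to 2958.9 in SD SO2. Under SO2 7 of 7 tested markers were above 0 in SH minus SD, with a median of 0.62 beside 0.0004 for all probe sets, and none called. In air 4 of 7 were above 0, with a median of 0.03, and the sums averaged 3023.55 in SH and 3054.72 in SD. Of that list of 10, 9 are on the array, Nppa and Pln lay below the level filter, and none was below the 10th percentile of signal on every array. The part of heart tissue in the Ccn1 difference was not tested.

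**Figure D2:**
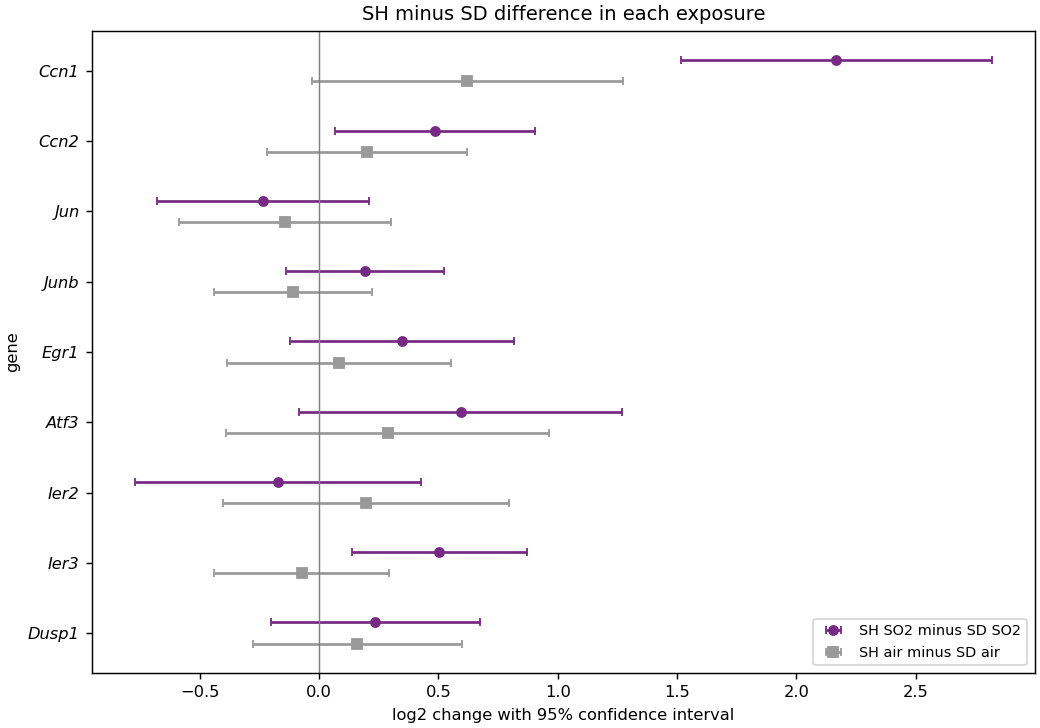
SH minus SD difference on the log2 scale (horizontal axis) with its 95% confidence interval for each tested gene (vertical axis), under SO2 (purple circles) and in air (grey squares). Ccn1 under SO2 stands at 2.17 with an interval of 1.52 to 2.82, and every interval in air includes 0.

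Ccn2, the connective tissue growth factor gene, had the smallest unadjusted p among these genes for SO2 against air in SH rats. It measured 9895.9, 7489.3, 8060.3 and 8419.1 in SH SO2 lungs. In SH air lungs it measured 4949.4, 4709.3, 4864.0 and 5872.4. Every SH SO2 array was above every SH air array. The change was 0.73 (SE 0.201, 95% interval 0.31 to 1.15), a 1.66-fold higher signal with SO2, and it did not pass over all probe sets (unadjusted p = 0.001765, adjusted p = 0.6534).

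In SD lungs Ccn2 measured 7793.8, 5193.2, 9100.4 and 3524.8 with SO2. It measured 4090.3, 4776.5, 4987.0 and 3910.2 in SD air. With SO2 3 of the 4 SD arrays were above all SD air arrays, and replicate 4 was below all of them. The change was 0.44 (SE 0.201, adjusted p = 0.5894), and the interaction was 0.29 (95% interval -0.31 to 0.88, adjusted p = 0.9938). Averaged over strains, SO2 minus air was 0.58 (SE 0.142, unadjusted p = 0.0005687, adjusted p = 0.2321). Without SD air replicate 2 these values were 0.48 in SD, 0.25 for the interaction and 0.60 on average, and none passed. Without SD SO2 replicate 4 the SD change was 0.70 and the interaction 0.031, and without SD SO2 replicate 3 the SD change was 0.24. Without SD SO2 replicate 4 the average was 0.71 and passed (adjusted p = 0.0313897). Of the 26 alternatives fitted per probe set, this was the only 1 in which it was called. Ccn2 in SH minus SD under SO2 was 0.49 (adjusted p = 0.3709), and 0.23 without the same array. In order of level Ccn2 averaged 8466 ± 1027 in SH SO2, 6403 ± 2514 in SD SO2, 5099 ± 525 in SH air and 4441 ± 521 in SD air (SD, n = 4 each). The strains did not differ by a test that passed under either exposure, and SD SO2 was not compared with SH air.

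**Figure D3:**
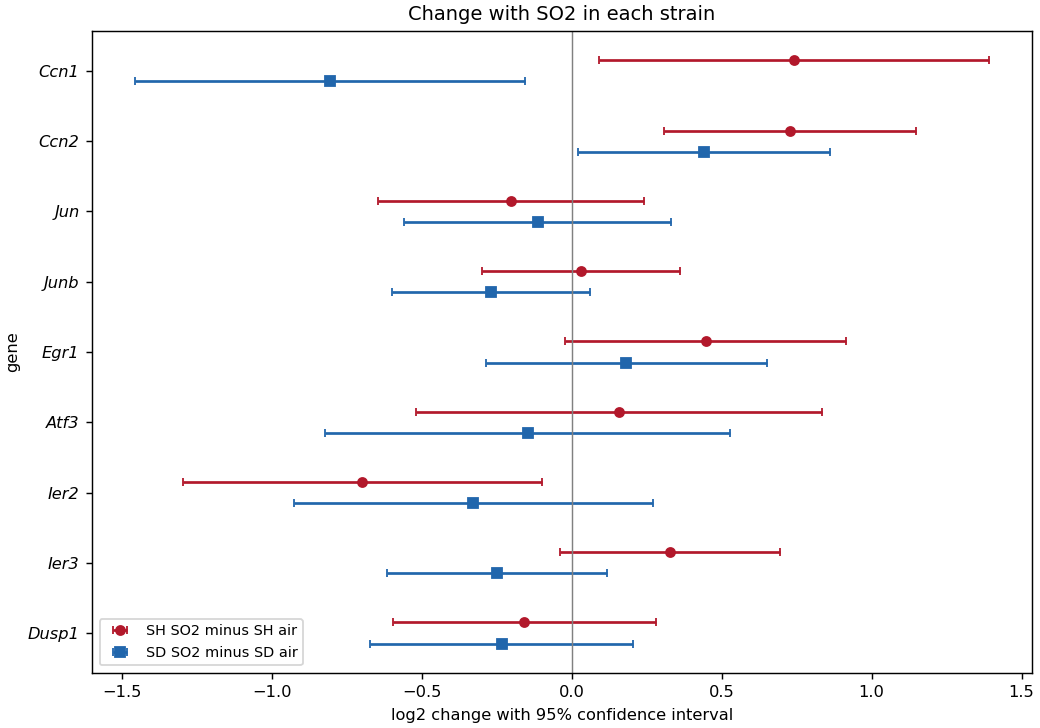
SO2 minus air on the log2 scale (horizontal axis) with its 95% confidence interval for each tested gene (vertical axis), in SH (red circles) and SD rats (blue squares). Ccn2 is above 0 in both strains (0.73 in SH and 0.44 in SD) and Ccn1 lies on opposite sides of 0 (0.74 in SH and -0.81 in SD), and none of these changes passed after adjustment.

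No AP-1 gene passed the test for SO2 in either strain. Jun, whose protein pairs with Fos proteins in AP-1, is measured by 3 probe sets, and the brightest, 1389528_s_at, was -0.20 in SH (SE 0.212) and -0.11 in SD (SE 0.212). The other 2 Jun probe sets were -0.05 and -0.20 in SH, and -0.13 and -0.05 in SD, so all 3 were below 0 in both strains with no adjusted p under 0.8674. Deviations of the 3 Jun probe sets from group means correlated at r = 0.593 to 0.7689 over 16 arrays. Jun spread widely in SD air, at 1496.6, 2115.4, 2217.5 and 952.8, which covered every SH array. Without SD air replicate 2 the Jun change in SD was 0.016 on the brightest probe set, and -0.13 and -0.014 on the other 2.

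Junb, which encodes a Jun protein that can oppose Jun at AP-1 sites, measured 492.3 to 640.2 in SH SO2 and 469.1 to 623.5 in SH air, a change of 0.03 (95% interval -0.30 to 0.36). In SD it measured 384.5 to 622.7 with SO2 and 509.0 to 746.1 in air, a change of -0.27 (95% interval -0.60 to 0.06, adjusted p = 0.6798), or -0.26 without SD air replicate 2. Groups overlapped in both strains. Atf3, a stress-induced repressor of the ATF family, averaged 205 ± 23.9 in SH SO2 and 144 ± 68.1 in SD SO2 (SD, n = 4 each). Its SO2 minus air change was 0.16 in SH (adjusted p = 0.9732) and -0.15 in SD (adjusted p = 0.9404), or -0.07 in SD without SD air replicate 2. The SH minus SD difference under SO2 was 0.59 (SE 0.324, adjusted p = 0.559), and the lowest array, at 49.1, was SD SO2 replicate 4, the array that was also lowest for Ccn2 and Egr1. Without that array the Atf3 difference was 0.21.

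Fos was too dim to be tested with the rest. The level filter stood at 6.97 on the log2 scale, and the Fos probe sets averaged 6.82 and 6.72 over the 16 arrays, just outside, while Atf3 at 7.48 was the nearest gene inside. Probe set 1375043_at measured 160.7, 83.6, 139.1 and 201.1 in SH SO2, against 76.6, 52.6, 91.5 and 70.6 in SH air. The groups overlapped through 1 array of each. In a fit with no level filter over 15866 probe sets this change was 0.83 (SE 0.35, unadjusted p = 0.0289, adjusted p = 0.955). The other probe set, 1371283_at, gave 0.08 in the same comparison, and the 2 probe sets' deviations correlated at r = 0.124. SO2 minus air in SD was 0.15 for 1371283_at and -0.0067 for 1375043_at. For SH minus SD under SO2 the probe sets were alike, at 0.79 (adjusted p = 0.57) for 1371283_at and 0.73 (adjusted p = 0.566) for 1375043_at. In air they were not alike, at 0.86 for 1371283_at (unadjusted p = 0.0381, adjusted p = 0.809) and -0.11 for 1375043_at (adjusted p = 0.997). Averaged over exposures, SH minus SD was 0.83 for 1371283_at (unadjusted p = 0.00711, adjusted p = 0.224) and 0.31 for 1375043_at (adjusted p = 0.774).

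Egr1, the zinc finger factor whose promoter held 2 CArG matches, measured 357.6, 433.3, 446.8 and 577.4 in SH SO2. In SH air it measured 307.1, 342.1, 364.1 and 287.9. The groups overlapped only through the lowest SO2 array and the highest air array. The change was 0.45 (SE 0.224, 95% interval -0.02 to 0.92, adjusted p = 0.9486). In SD rats Egr1 was 208.3 to 524.9 with SO2 and 240.0 to 433.3 in air, a change of 0.18 (SE 0.224, adjusted p = 0.8751). It was 0.14 without SD air replicate 2, 0.41 without SD SO2 replicate 4 and -0.0094 without SD SO2 replicate 1.

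Ier2 and Ier3 are early response genes with short transcripts. Ier2 encodes a nuclear protein, and Ier3 a protein tied to cell survival and MAP kinase signalling. Ier2 measured 619.6, 381.6, 597.6 and 974.6 in SH SO2, against 926.4, 937.3, 1278.8 and 898.4 in SH air. With SO2 3 arrays were below all air arrays and replicate 4 was within their range. The change was -0.70 (SE 0.286, unadjusted p = 0.02454, adjusted p = 0.9486) in SH and -0.33 (SE 0.286, adjusted p = 0.7889) in SD. The SD change was -0.14 without SD air replicate 2 and -0.63 without SD air replicate 4. Averaged over strains it was -0.51 (SE 0.202, adjusted p = 0.5039), or -0.42 without SD air replicate 2.

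Ier3 measured 1071.7, 919.2, 1172.9 and 1092.3 in SH SO2, against 807.5, 838.1, 885.2 and 835.6 in SH air. Every SO2 array was above every air array, yet the change was 0.33 (SE 0.176, adjusted p = 0.9486). In SD rats Ier3 measured 662.6, 966.7, 683.0 and 694.7 with SO2, against 673.4, 1135.0, 1206.4 and 664.3 in air. The SD air arrays split into 2 high and 2 low values, and the change was -0.25 (SE 0.176, adjusted p = 0.7285), or -0.13 without SD air replicate 2. The interaction for Ier3 was 0.58 (SE 0.248, unadjusted p = 0.03134, adjusted p = 0.9815), or 0.46 without SD air replicate 2, and its SH minus SD difference under SO2 was 0.50 (SE 0.176, unadjusted p = 0.00968, adjusted p = 0.2451).

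Dusp1, the nuclear phosphatase of the feedback arm, averaged 1304 ± 138 in SH SO2 and 1470.5 ± 268 in SH air on its brighter probe set, 1368146_at (SD, n = 4 each), a change of -0.16 (SE 0.21). In SD it averaged 1109 ± 160 with SO2 and 1381 ± 590 in air, a change of -0.23 (SE 0.21, adjusted p = 0.796). The highest array was SD air replicate 2 at 2199.4, and without it the SD change was 0.018. The dimmer probe set, 1368147_at, was -0.29 in SH (SE 0.345) and -0.81 in SD (SE 0.345, unadjusted p = 0.03016, adjusted p = 0.567), or -0.63 without SD air replicate 2. Deviations of the 2 Dusp1 probe sets correlated at r = 0.4204.

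Counted together, none of the 12 probe sets was called by limma for SO2 against air in SH rats, where 0.0% of all probe sets were called. At an unadjusted p under 0.05 the count was 3 of 12 (Ccn1 and Ccn2 higher, Ier2 lower), against 4.84% of all probe sets. Groups did not overlap for 2 of 12 (Ccn2 and Ier3), against 4.17% of all probe sets. Of the 12 probe sets 6 were above 0, against 53.6% of all probe sets, with a median change of -0.0089 on the log2 scale, beside 0.02 for all probe sets. With 1 probe set standing for each gene, 6 of 9 were above 0 and the median was 0.16. In SD rats 0 of 12 were called by limma (0.0% of all probe sets), and 3 of 12 had an unadjusted p under 0.05 (Ccn1 and 1 Dusp1 probe set lower, Ccn2 higher), against 8.24%. Of the 12 probe sets 2 were above 0 in SD (Ccn2 and Egr1), against 53.4% of all probe sets, with a median of -0.19 over the 12 and -0.23 over the 9 genes, and no probe set had groups without overlap, against 3.54% of all. This count depends on single arrays, SD air replicate 2 among them. Without SD air replicate 2 the brightest probe sets of Jun and Dusp1 were also above 0, at 0.016 and 0.018, and the other probe sets kept their sign. Without SD air replicate 3, Jun was 0.039 on 1389528_s_at and 0.11 on 1374404_at, and Atf3 was 0.0003. Atf3 was 0.24 without SD SO2 replicate 4, and Egr1 fell to -0.0094 without SD SO2 replicate 1. The 12 include 3 probe sets of Jun and 2 of Dusp1, which are not separate genes.

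For the difference between the strains' SO2 effects 0 of 12 were called (0.0% of all), and 2 of 12 had an unadjusted p under 0.05 (Ccn1 and Ier3), against 4.65%. For SO2 averaged over strains 0 of 12 were called (0.0% of all), with 3 of 12 at an unadjusted p under 0.05 against 8.45%. Between strains in air 0 of 12 were called and 0 of 12 had an unadjusted p under 0.05, against 0.0% and 6.38% of all probe sets, and groups did not overlap for 0 of 12, against 4.02%. These air counts include SD air replicate 2. Without it SH minus SD in air was 0.85 for Ccn1, 0.41 (SE 0.173) for the brighter Dusp1 probe set and 0.38 for Ier2. With it these were 0.62, 0.16 and 0.20. None of the 3 was called without it (limma adjusted p = 0.371, 0.430 and 0.744). Between strains in SO2 3 of 12 had an unadjusted p under 0.05, all higher in SH (Ccn1, Ccn2 and Ier3), against 10.1% of all probe sets in either direction. Groups did not overlap between strains in SO2 for 1 of 12, Ccn1, against 5.58% of all. Averaged over exposures 2 of 12 had an unadjusted p under 0.05 (Ccn1 and Ccn2, higher in SH), against 11.6%. The comparisons share arrays, so these counts are not separate pieces of evidence.

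Whether the same animals were high for several of these genes was asked with deviations from group means over the 16 arrays, for all 36 pairs of the 9 tested genes. Pearson's r was above 0 for 32 of 36 pairs, with a median of 0.366 and a range of -0.1401 to 0.899. The same share for pairs among all tested genes was not computed, so 32 of 36 is not read as a trait of these genes. The pair of highest r was Jun and Ier2 (r = 0.899, adjusted permutation p = 0.00648; rho = 0.8588, adjusted permutation p = 0.01224), and r was 0.844 without the 2 arrays farthest from the Jun median. The only other pair whose r passed was Junb and Ier3 (r = 0.7327, adjusted permutation p = 0.00666; rho = 0.7559, adjusted permutation p = 0.01656), with r = 0.6831 without the 2 arrays farthest from the Junb median.

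Spearman's rho passed for 2 more pairs, Ier2 with Ier3 (rho = 0.8176, r = 0.7869) and Jun with Dusp1 (rho = 0.8118, r = 0.7913), each with an adjusted permutation p of 0.02439 for rho; their r had adjusted permutation p of 0.05472 and 0.0744. Ccn1, Ccn2, Egr1 and Atf3 had no pair that passed by r or rho. For Ccn1, r lay between -0.14 and 0.29 to the other 8 genes and was 0.004 to Ccn2. When the dim end of the signal distribution and the actin 3′ to 5′ ratio were regressed out, r was 0.7901 for Jun and Ier2, 0.666 for Junb and Ier3, and 0.9053 for Ier2 and Ier3, and 0 of 36 pairs passed. Without SD air replicate 2, 3 pairs passed, the first 2 and Jun with Dusp1. Genes on 1 array share its hybridisation, and how far that sets these correlations was not tested.

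**Figure D4:**
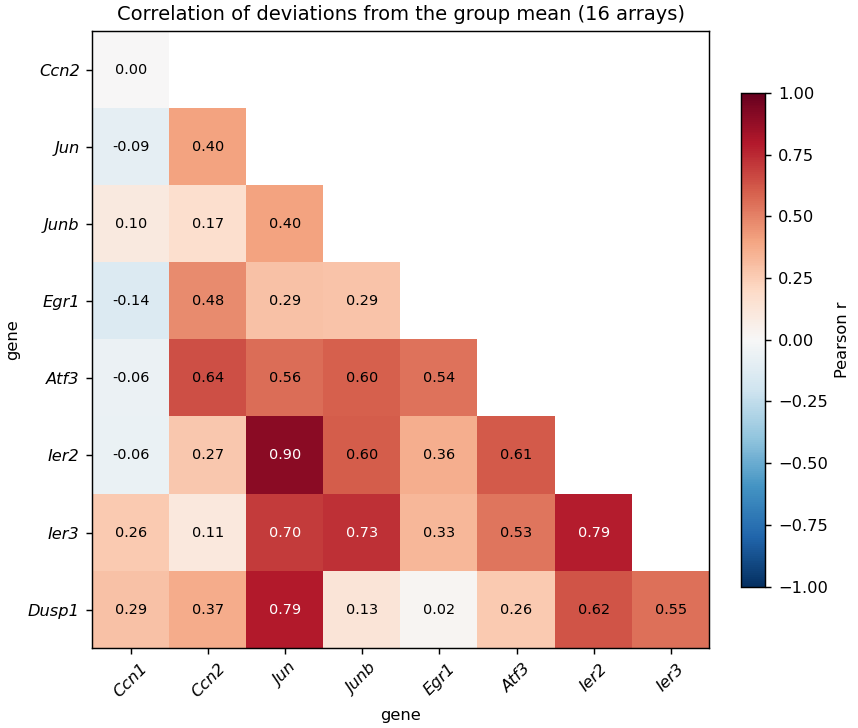
Pearson r of log2 deviations from the group mean over 16 arrays, for each pair of the 9 tested genes (rows and columns), coloured blue below 0 and red above 0 on a scale of -1 to 1. Jun and Ier2 reach 0.90, and the Ccn1 column runs from -0.14 to 0.29.

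**Figure D5:**
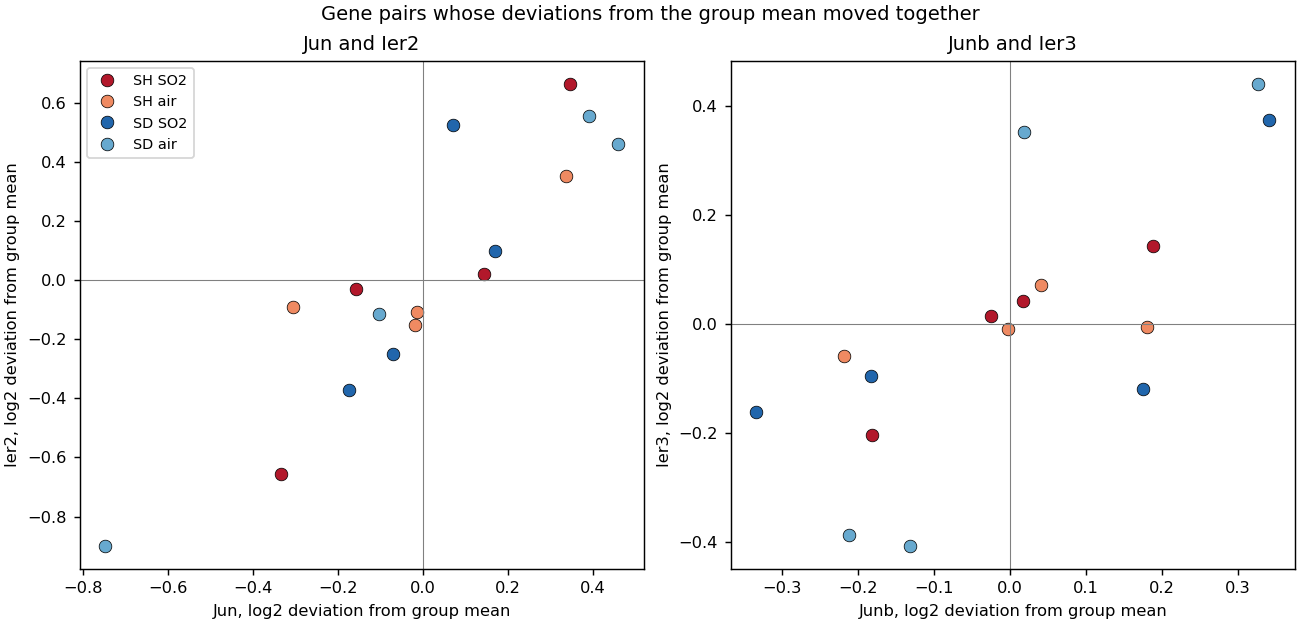
Log2 deviation from the group mean on each of the 16 arrays for Jun and Ier2 (left) and for Junb and Ier3 (right), coloured by group. Both clouds run from lower left to upper right (r = 0.899 and 0.7327), and SD air arrays lie at both ends of each.

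The genes whose deviations were most like a given gene's were ranked by Pearson r among 8051 other genes over the 16 arrays, as a description. For Ccn1 they were Pcgf3 (r = 0.8598), Patj (0.793), Zc3hc1 (0.7928), Atf7ip (0.773) and Rfx1 (0.7713). For Ccn2 they were Rpa3 (r = 0.8426), Tmem30a (0.8203), Mlf2 (0.8156), Rpusd4 (0.793) and Ccdc102a (0.793). For Egr1 they were Mrps15 (r = 0.9135), Crlf2 (0.8868), Anks4b (0.8395), Higd1a (0.8358) and Ccnq (0.8305). Each list holds the highest of 8051 values of r over 16 arrays, which can be high by chance, and none was tested. With group means kept in the log2 values, r for the Ccn1 genes ran from 0.027 (Rfx1) to 0.81 (Patj).

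Related genes outside the 10 were counted in 6 lists, and none was called in any of the 7 comparisons. Of 20 tested transcription factors of the immediate early and early response, such as further Fos, Jun, Egr, Klf and Nr4a genes, 8 were above 0 in SH with SO2 (median -0.07) and 7 in SD (median -0.11). Nr4a1, an orphan nuclear receptor induced with Egr1 in many cells, was 0.33 in SH (adjusted p = 0.949) and 0.54 in SD (adjusted p = 0.428). Klf6 was -0.21 in SH, and Id3, an inhibitor of helix-loop-helix factors, was -0.60 in SD (adjusted p = 0.429). Of 22 early effector and feedback genes, 13 were above 0 in SH (median 0.08) and 9 in SD (median -0.03). Gadd45b, a growth arrest and stress gene, was 0.49 in SH and the kinase gene Sgk1 was 0.33 (adjusted p = 0.949 for both). In SD the GTPase gene Rhob measured 1908.6 to 2721.6 with SO2 and 3084.3 to 3376.3 in air, a change of -0.47 (adjusted p = 0.329), and the survival gene Mcl1 was -0.38 (adjusted p = 0.428).

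Of 10 other dual specificity phosphatases, 8 were above 0 in SH with SO2 (median 0.12) and 5 in SD (median 0.02). Dusp4 was 0.74 (SE 0.353) and Dusp2 0.40 in SH, and Dusp6, the cytoplasmic ERK phosphatase, was 0.38 in SD (adjusted p = 0.476) with Dusp12 at -0.30. Of 6 other CCN and matricellular genes 3 were above 0 in SH and 4 in SD, where medians were 0.04 and 0.05. Ccn3 was 0.25 in SH and -0.19 in SD, Ccn5 was 0.23 in SH, and Tnc, the tenascin-C gene, was 0.31 in SD. Of 14 target genes of YAP, serum response factor or TGF-beta, 11 were above 0 in SH (median 0.13) and 9 in SD (median 0.02). Filamin gene Flna measured 5303.3 to 6075.7 in SH SO2 and 4896.5 to 5256.2 in SH air, a change of 0.18 (adjusted p = 0.949), and was 0.26 in SD (adjusted p = 0.47). Myl9 was 0.32 in SH, and Edn1, the endothelin-1 gene, was 0.68 in SD (adjusted p = 0.522). Of 16 upstream kinases and promoter-binding factors 7 were above 0 in SH and 10 in SD, and the 2 of smallest p were Mapk14 (-0.26) and Tead1 (0.18) in SH, and Elk4 (0.40) and Map2k2 (-0.23) in SD.

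Between strains under SO2 the related genes were likewise uncalled. Plk2, a stress-responsive kinase gene, measured 731.2 to 892.2 in SH SO2 and 461.1 to 663.0 in SD SO2, a difference of 0.46 (SE 0.14, adjusted p = 0.157), and Sgk1 was 0.44 (adjusted p = 0.305). Dusp5 measured 238.9 to 299.5 in SH SO2 and 108.8 to 219.7 in SD SO2, a difference of 0.63 (adjusted p = 0.25). Acta2, smooth muscle actin, was -0.44 (adjusted p = 0.421), and Axl, a receptor kinase gene known as a YAP target, was 0.30 (adjusted p = 0.433). Tnc was -0.64 (adjusted p = 0.485) and Ccn3 was 0.29 (adjusted p = 0.679). Jund was 1.56 (SE 0.569, adjusted p = 0.275), on SD SO2 signals that ran from 11.9 to 491.2. Klf6 was -0.33 (adjusted p = 0.421), Map2k3 -0.28 (adjusted p = 0.376) and Elk4 -0.33 (adjusted p = 0.596), all lower in SH, and Dusp3 was 0.23 (adjusted p = 0.556). None of the related lists thus held a called gene beside Ccn1 in this comparison, where 0.81% of all probe sets were called.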

How the data were processed

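Total RNA from rat lung was measured on 16 arrays in 4 groups, taken from the labels. The deposited values are linear intensities, 1 for each probe set on each array, made by the authors with the Affymetrix software GCOS, per the submitters' processing notes; for its version, settings and genome build the sources used here give nothing. Detection calls were not used. Arrays were labelled as biological replicates, no array pair among 120 was identical, and the number of arrays limits the precision.

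Of 15923 probe sets, 57 controls were left out. The 10 genes were matched by platform symbol. Symbols and promoters come from RefSeq tables of assembly GRCr8. Values were taken as log2(intensity + 16), an offset that shrinks the changes of dim probe sets. Leaving out the dimmest 30% by mean over all arrays kept 11106 probe sets. Each comparison was a contrast of the 4 group means, fitted by limma 3.58.1 under R 4.3.3 with 12 residual degrees of freedom and a trended eBayes step, with Benjamini-Hochberg adjustment over the 11106, and adjusted p under 0.05 counted as called. There were 7 comparisons: SO2 against air in SH, in SD, on average and as a difference between strains, and SH against SD in each exposure and on average. Correlations of deviations from group means used 100000 two-sided permutations within groups in Python 3.11.15, adjusted over 36 pairs. The scripts were tested on simulated data.

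All probe sets of the 10 genes are reported, with the brightest tested probe set standing for a gene. Of each related list and comparison the 2 genes of smallest p are named in the comparisons of SO2 in each strain; the text gives a selection of them between strains. The 5 genes of most similar deviations are named for Ccn1, Ccn2 and Egr1, and none for Fos, which was not tested. The lists were early transcription factors, early effectors, dual specificity phosphatases, CCN and matricellular genes, targets of YAP, serum response factor and TGF-beta, upstream kinases and factors, heat shock genes, and markers of 9 cell types. The genes, lists and rules were chosen with earlier results of these data known. Alternatives were offsets of 1 and 64, quantile and median scaling, no filter, the lower 50% left out, averaged probe sets, the replicate block, eBayes without a trend, only the groups compared, the title number or array quality as covariates, and each array left out in turn.

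Marker lists were used to check the tissue and to set beside the genes. Beside the epithelial and heart muscle markers given with the results, none of the endothelial, fibroblast, smooth muscle, neutrophil, macrophage, erythroid or mesothelial markers was called in the 4 pairwise comparisons. Their median SH minus SD differences under SO2 were 0.04 for endothelium, -0.05 for fibroblasts, -0.22 for smooth muscle, 0.34 for neutrophils, -0.07 for macrophages, -0.33 for erythroid cells and -0.07 for mesothelium.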

Additional observations from a re-analysis of the deposited data

Results flagged for a closer look

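In groups of 4 arrays the highest or lowest value was compared with the others by Dixon's ratio, over 56 combinations of probe set and group, where chance alone marks about 1 in 20. It marked 2. Ier2 measured 1278.8 on SH air replicate 3, far from the 898.4 to 937.3 of the other SH air arrays. Ier3 measured 966.7 on SD SO2 replicate 2, far from the 662.6 to 694.7 of the other SD SO2 arrays.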

How the results depend on the processing

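The higher Ccn1 signal in SH rats was called in every alternative that tested the probe set, 26 under SO2 and 25 on average. With the lower 50% of probe sets left out Ccn1 was no longer tested, so both counts of called probe sets became 0 by construction. SO2 averaged over strains had a count of 0 to 1 with each array left out, 1 (Ccn2) without SD SO2 replicate 4. The count of correlated pairs, 2 here, was 5 with quantile normalization and 0 with array quality regressed out. The other counts of called probe sets were the same under each alternative run.

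The replicate numbers used here follow the order of the titles within each group, and the labels give no pairing of animals across groups. Same-numbered arrays correlated at a mean r of -0.082 to 0.00087 over deviations, beside 0.012 for different numbers. As the numbers were assigned, these values cannot show whether animals were paired. With a block for the same assigned numbers Ccn1 under SO2 was 2.17 (adjusted p = 0.003557), and each count of called probe sets was as without it.

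The single-gene values that changed sign were all uncalled log2 changes, and the cause was not tested. For SO2 in SH, Jun was 0.023 and Dusp1 0.053 with array quality, Dusp1 0.085 and Junb -0.12 with title number, and Junb -0.025 with median scaling. For the interaction, Jun was 0.14 with title number and 0.047 with array quality, and Egr1 -0.072 with title number. In air, title number gave Atf3 -0.062, Dusp1 -0.083, Ier2 -0.0056 and Junb 0.037. For SO2 on average, Atf3 was -0.0043 with an offset of 1, -0.072 with quantile and -0.041 with median scaling, Ier3 -0.0065 with median scaling, and Ccn1 0.022 with an offset of 64. For the average strain difference, Ier2 was -0.071 with title number and -0.0087 with array quality.

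With each array left out, SO2 in SH ranged from -0.0019 to 0.27 for Atf3 and -0.043 to 0.090 for Junb. SO2 in SD ranged from -0.38 to 0.24 for Atf3, -0.42 to 0.018 for Dusp1, -0.0094 to 0.41 for Egr1 and -0.36 to 0.039 for Jun. The interaction ranged from -0.081 to 0.54 for Atf3, -0.18 to 0.27 for Dusp1 and -0.24 to 0.16 for Jun. The strain difference in air ranged from -0.030 to 0.41 for Dusp1, -0.026 to 0.24 for Egr1, -0.10 to 0.38 for Ier2, -0.21 to 0.074 for Ier3, -0.39 to 0.0085 for Jun and -0.18 to 0.00084 for Junb, and under SO2 from -0.39 to 0.046 for Ier2. SO2 on average ranged from -0.11 to 0.20 for Atf3, -0.17 to 0.082 for Ccn1 and -0.028 to 0.11 for Ier3, and the average strain difference from -0.14 to 0.12 for Ier2 and -0.0135 to 0.099 for Junb.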

Other observations

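Heat shock genes, which encode chaperones and, like the immediate early genes, respond quickly to stress, were counted beside them. With SO2 in SH rats 0 of 7 tested were above 0, with a median change of -0.58 on the log2 scale beside 0.02 for all probe sets, and none was called by limma, while 5 of 7 had an unadjusted p under 0.05 against 4.84% of all probe sets. Dnaja1, a co-chaperone gene, measured 1537.7 to 1850.3 in SH SO2 and 2443.1 to 3570.0 in SH air, without overlap, a change of -0.75 (SE 0.181, adjusted p = 0.402). Hspa1a, an inducible Hsp70 gene, measured 715.2 to 1602.6 in SH SO2 and 1292.4 to 6498.0 in SH air, a change of -1.35 (SE 0.371, adjusted p = 0.653). In SD rats 1 of 7 was above 0, with a median of -0.36, and Dnajb1 was -0.59 (adjusted p = 0.381) and Hspb1 -0.58 (adjusted p = 0.522). In air 7 of 7 were above 0 in SH minus SD, with a median of 0.23 beside 0.001 for all probe sets, no call, and Dnaja1 at 0.56 (adjusted p = 0.438).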
